A study of Caenorhabditis elegans with 6 samples.

Results

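The enzymes that degrade phenylalanine and tyrosine in Caenorhabditis elegans were followed at the transcript level in 6 whole-animal RNA-seq libraries. The 3 tryptophan samples were fed that amino acid at 5 mM for 36 h, starting at L4, the final larval stage, and 3 further samples served as controls. All were wild-type (WT) young adult hermaphrodites held at 20 °C. The comparison sets transcript levels of this route after tryptophan feeding against those of control animals. The bacterial food, the strain and whether replicates came from separate cultures are not given in the labels, so p-values measure the spread between these libraries, which may be technical.

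The route has 6 enzymes, taken by name from 46589 gene identifiers: pah-1 (K08F8.4), tatn-1 (F42D1.2), hpd-1 (T21C12.2), hgo-1 (W06D4.1), gst-42 (D1053.1) and fah-1 (K10C2.4). The selection gave the sequence name T21C9.2 for hpd-1, but the annotation assigns that name to vps-54, which encodes a vesicle-tethering protein, and gives T21C12.2 for hpd-1. The selection therefore held 5 enzymes of the route. The third step was read from T21C12.2, and T21C9.2 is given separately.

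As background, animals cannot make phenylalanine and obtain tyrosine either from food or by hydroxylating phenylalanine. Surplus tyrosine is transaminated, its ring is oxidised and opened, and the product is split into fumarate, which enters the citric acid cycle, and acetoacetate, a ketone body. Inherited loss of these enzymes in people causes phenylketonuria, alkaptonuria and the tyrosinaemias. Phenylalanine hydroxylase belongs to the same family of pterin-dependent hydroxylases as the enzyme that commits tryptophan to serotonin, whereas most tryptophan is degraded by the separate kynurenine route.

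Values are FPKM (fragments per kilobase of transcript, scaled to library size), which can be compared between genes because they are scaled by length. Differences were tested with limma, a linear model fitted across all genes, on log2(FPKM + 1). A log2 fold change on that scale slightly understates the change of low genes. The test covered the 13511 genes that averaged 1 FPKM or more over the 6 libraries, and all 6 enzymes were among them.

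Of the libraries, tryptophan library 1 and control library 1 stood apart. Across the tested genes their log2 values correlated at 0.578 with each other, while the other 4 libraries correlated at 0.960 to 0.980 among themselves. Yolk transcripts (6 genes) averaged 5.81 on the log2 scale in tryptophan library 1 and 11.41 in control library 1. Sperm transcripts (15 genes) averaged 8.89 in tryptophan library 1 and 3.69 in control library 1. Tryptophan library 1 had the lowest mean of 6 of the 7 marker lists examined, all but sperm. In the other 4 libraries the yolk mean was 6.66 to 8.77 and the sperm mean 7.13 to 7.68. Results are therefore given for all 6 libraries and for libraries 2 and 3 of each group. All 61 genes of the 7 marker lists for intestine, epidermis, yolk, oocyte, sperm, body wall muscle and neurons were above 0 in at least 1 library. Low values indicate an estimated 17.5 to 25.0 M (mega) counted units in tryptophan libraries and 14.8 to 21.4 M in control libraries.

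None of the 6 enzymes changed past the threshold (0 of 6 at a limma adjusted p below 0.05, and 0 of 6 at an unadjusted p below 0.05). The same test called 0% of all 13511 genes, with 158 at an unadjusted p below 0.05. The fifth enzyme, gst-42, was the one member whose tryptophan libraries all lay above the control libraries, and the other 5 overlapped between groups. The same complete separation was seen upward for 3.98% and downward for 4.32% of all tested genes. Among the enzymes, log2 fold changes ran from -0.048 to 0.82 with a median of 0.057, against a median of -0.034 over all tested genes. Of the 6, 5 were above 0, or 4 with median rescaling and 6 with rescaling to TPM, which moved the median of all genes to 0.080. In whole animals, fewer cells that express a gene and less RNA per cell cannot be told apart.

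pah-1 (chromosome II, 8762622 to 8766997, reverse strand) encodes phenylalanine hydroxylase, which converts phenylalanine to tyrosine with tetrahydrobiopterin as cofactor. It had 30.5, 44.6 and 42.8 FPKM in tryptophan libraries 1 to 3, against 56.6, 29.8 and 33.9 FPKM in control libraries 1 to 3. The highest and the lowest value were both control values, so the groups overlapped fully. Means were 39.3 ± 7.69 FPKM with tryptophan and 40.1 ± 14.5 FPKM in controls (SD, n = 3 each), and the log2 fold change was 0.0091 (SE 0.41, 95% interval -0.95 to 0.97, limma adjusted p = 0.996). The gene shares 99 bp of exon with nsph-1.1 on the opposite strand. It also overlaps K08F8.15, a protein-coding gene on the opposite strand for which no values are given here. Strandedness is not given in the sources used here, so reads there cannot be told apart. nsph-1.1 had 8.47, 4.003 and 5.09 FPKM with tryptophan and 0.220, 5.26 and 5.21 FPKM in controls.

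tatn-1 (chromosome X, 14791008 to 14792984, forward strand) encodes tyrosine aminotransferase, which removes the amino group of tyrosine and is regarded as the rate-limiting step in animals. Worms lacking it accumulate tyrosine. It had 40.1, 106.5 and 121.1 FPKM in tryptophan libraries 1 to 3, against 87.7, 99.7 and 65.8 FPKM in control libraries 1 to 3. The low value was that of tryptophan library 1, below every control, while tryptophan libraries 2 and 3 lay above every control. The log2 fold change was -0.048 (SE 0.50, 95% interval -1.22 to 1.13, limma adjusted p = 0.981). Without tryptophan library 1 it was 0.44 (limma adjusted p = 0.860). In that library, body wall muscle markers (7 genes) averaged 6.94 on the log2 scale, against 8.41 to 8.89 in the other 5 libraries. Intestinal markers (8 genes) averaged 5.69 there and 6.31 to 6.73 in the others, epidermal markers (8 genes) 5.12 there and 5.56 to 5.90 in the others, and neuronal markers (7 genes) 3.96 there and 4.58 to 4.95 in the others. The part of these markers in the low value was not tested.

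hpd-1 (chromosome III, 10535526 to 10537680, forward strand) encodes 4-hydroxyphenylpyruvate dioxygenase, the enzyme that forms homogentisate and whose human counterpart is blocked by the drug nitisinone. It had 104.5, 166.7 and 188.3 FPKM in tryptophan libraries 1 to 3, against 181.9, 128.4 and 127.8 FPKM in control libraries 1 to 3. As for tatn-1, tryptophan library 1, in which those marker lists were also low, was the lowest of all and library 3 the highest. The log2 fold change was 0.045 (SE 0.38, 95% interval -0.85 to 0.94, limma adjusted p = 0.977).

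hgo-1 (chromosome I, 9049460 to 9055457, reverse strand) encodes homogentisate dioxygenase, which opens the aromatic ring and whose human counterpart is lost in alkaptonuria. It had 41.8, 46.2 and 51.97 FPKM in tryptophan libraries 1 to 3, against 52.03, 39.8 and 41.8 FPKM in control libraries 1 to 3. Its highest and lowest values differed by 1.31-fold, the narrowest range among the 6 enzymes, and the groups overlapped. The log2 fold change was 0.069 (SE 0.35, 95% interval -0.74 to 0.88, limma adjusted p = 0.961).

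gst-42 (chromosome X, 11726264 to 11727936, reverse strand) encodes the zeta-class glutathione S-transferase that acts as maleylacetoacetate isomerase, turning the ring-opened product into fumarylacetoacetate. It had 57.6, 32.5 and 42.4 FPKM in tryptophan libraries 1 to 3, against 18.8, 24.8 and 29.01 FPKM in control libraries 1 to 3. The extremes were the libraries that stood apart, tryptophan library 1 at the top and control library 1 at the bottom. Means were 44.1 ± 12.6 FPKM with tryptophan and 24.2 ± 5.12 FPKM in controls (SD, n = 3 each). The log2 fold change was 0.82 (SE 0.40, 95% interval -0.12 to 1.76, limma adjusted p = 0.802), or 1.77-fold for FPKM + 1. In libraries 2 and 3 it was 0.45 (SE 0.22, limma adjusted p = 0.397). Leaving out the highest tryptophan value and the lowest control value had to make the difference smaller. Yolk and sperm transcripts were also extreme in those libraries, and their part in the gst-42 values was not tested.

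fah-1 (chromosome X, 6446746 to 6448916, reverse strand) encodes fumarylacetoacetase, which splits the last intermediate, and its loss in worms damages the intestine. It had 114.2, 124.5 and 107.4 FPKM in tryptophan libraries 1 to 3, against 126.3, 88.8 and 99.4 FPKM in control libraries 1 to 3. Tryptophan libraries lay within the range of the controls. The log2 fold change was 0.15 (SE 0.33, 95% interval -0.63 to 0.93, limma adjusted p = 0.898).

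**Figure D1:**
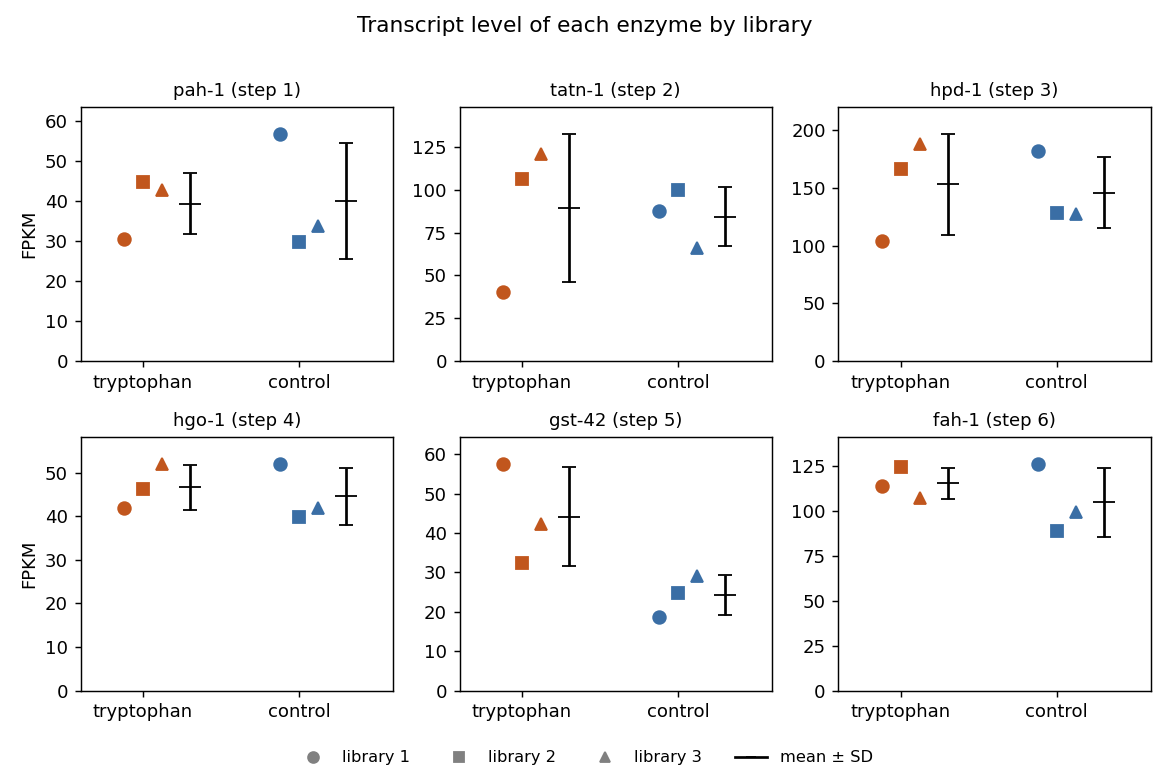
FPKM of each enzyme (y axis, linear from 0) in the tryptophan and the control libraries (x axis); circles, squares and triangles are libraries 1, 2 and 3, and bars are mean ± SD. All 3 tryptophan values of gst-42 lie above its control values, while the other 5 enzymes overlap, with tryptophan library 1 the lowest value for tatn-1 (40.1 FPKM) and hpd-1 (104.5 FPKM).

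Transcripts of the route were not equally abundant. Averaged over the 6 libraries, hpd-1 stood highest at 149.6 FPKM, followed by fah-1 at 110.1, tatn-1 at 86.8, hgo-1 at 45.6, pah-1 at 39.7 and gst-42 at 34.2 FPKM. hpd-1 exceeded fah-1 in 5 of 6 libraries, by 0.42 ± 0.31 on the log2 scale (SD over libraries), with tryptophan library 1 as the exception. tatn-1 exceeded hgo-1 in 5 of 6 libraries, by 0.84 ± 0.51, again with tryptophan library 1 as the exception. fah-1 and tatn-1 did not differ beyond their spread (0.41 ± 0.62), nor did pah-1 and gst-42 (0.26 ± 0.78), and the gap between hgo-1 and pah-1 (0.22 ± 0.22) was about as large as its spread. gst-42 was the least abundant of the 6 in 5 libraries, at 3.59% of their summed FPKM in control library 1. In tryptophan library 1 it made up 14.8% of the sum and pah-1 was the least abundant. The summed FPKM of the route was 388.6, 520.9 and 554.0 in tryptophan libraries 1 to 3, against 523.3, 411.3 and 397.7 in control libraries 1 to 3, so the groups overlapped. These sums were not scaled to the FPKM total of all genes, which differed between libraries. It was 1115620, 715748 and 608336 in tryptophan libraries 1 to 3, and 1013590, 733462 and 824915 in control libraries 1 to 3.

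The enzymes differed in how much they varied between libraries. Over all 6 libraries, residual SD within groups was 0.18 for hgo-1 and 0.20 for fah-1 on the log2 scale, and 97.2% and 96.3% of tested genes had a larger one. For tatn-1 it was 0.64, and the median of all tested genes was also 0.64. gst-42 and tatn-1 had the widest ranges over the 6 libraries, with highest values 3.06-fold and 3.02-fold above the lowest. In libraries 2 and 3 of each group the order changed. Residual SD there was 0.088 for hpd-1, 0.090 for hgo-1, 0.094 for pah-1 and 0.13 for fah-1. It was 0.22 for gst-42 and 0.31 for tatn-1, against a median of 0.20 over all tested genes. Over all 6 libraries, the profiles of hgo-1 and fah-1, each centred on its own mean, lay closest together, with a root mean square distance of 0.14 on the log2 scale. hpd-1 and pah-1 followed at 0.16, and gst-42 and tatn-1 were farthest apart at 0.88.

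**Figure D2:**
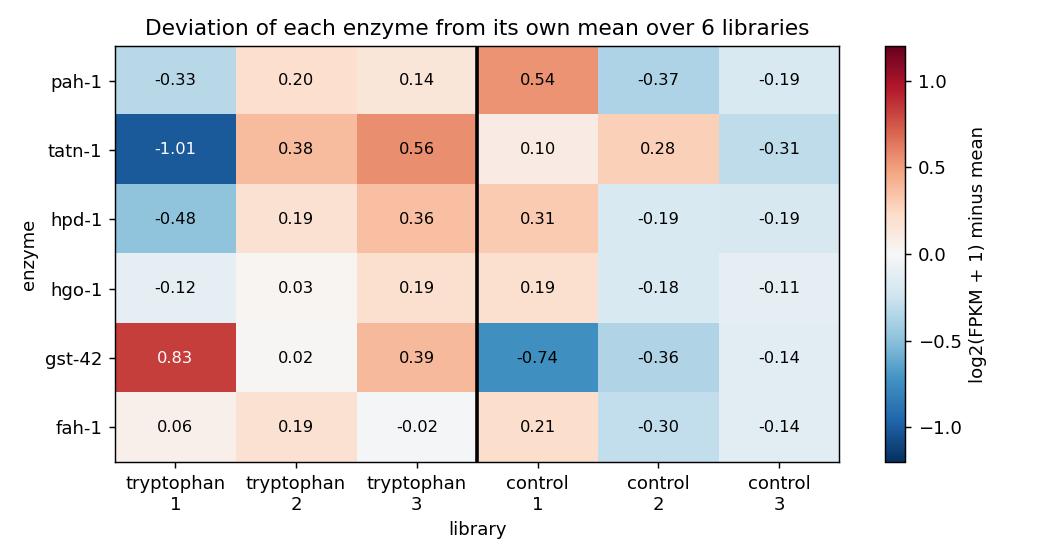
Deviation of log2(FPKM + 1) from each enzyme's own mean over the 6 libraries, by enzyme (rows, in order of the route) and library (columns, tryptophan left of the line and control right of it); red is above and blue below the mean. tatn-1 (-1.01) and gst-42 (0.83) lie at opposite ends in tryptophan library 1, and in control libraries 2 and 3 every value except that of tatn-1 in library 2 (0.28) is below the mean.

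In libraries 2 and 3 of each group, all 6 enzymes had both tryptophan values above both control values. This was so for 21.4% of all tested genes, with 25.0% the other way round. The log2 fold changes there were 0.45 (SE 0.19) for pah-1, 0.48 (SE 0.24) for tatn-1 and 0.46 (SE 0.19) for hpd-1. Those of the later steps were 0.26 (SE 0.19) for hgo-1, 0.45 (SE 0.22) for gst-42 and 0.30 (SE 0.19) for fah-1. Their median was 0.45, against -0.021 over all tested genes, 47.3% of which had a positive value. With median rescaling the enzymes' median was 0.44, and with rescaling to TPM, which put the median of all genes at 0.19, it was 0.69. All 6 were positive with each, in settings chosen after the data were seen. hpd-1 averaged 177.5 FPKM in tryptophan libraries 2 and 3 and 128.1 FPKM in control libraries 2 and 3, and pah-1 averaged 43.7 FPKM in those tryptophan libraries and 31.8 FPKM in those control libraries.

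None of the 6 passed there (0 of 6, limma adjusted p from 0.336 for hpd-1 to 0.563 for hgo-1), with 0.503% of all tested genes called. Before adjustment, limma gave 2 of 6, hpd-1 and pah-1, a value under 0.05, as it did 14.0% of all tested genes. That count depended on the scaling: it was 0 of 6 with median rescaling, against 2027 of all 13511 tested genes, and 6 of 6 with rescaling to TPM, against 16.7%. Yolk transcripts were also higher in these tryptophan libraries, at a mean log2 level of 8.77 and 7.65 in tryptophan libraries 2 and 3, against 7.47 and 6.66 in control libraries 2 and 3. Intestinal markers (8 genes) stood at 6.731 and 6.524 with tryptophan and 6.521 and 6.475 in controls. Sperm transcripts stood at 7.13 and 7.30 with tryptophan and 7.54 and 7.68 in controls. Epidermal markers (8 genes) overlapped, at 5.72 and 5.56 with tryptophan and 5.82 and 5.63 in controls. The means of the oocyte, body wall muscle and neuronal lists overlapped between the groups as well. The part of these markers in the enzymes' values was not tested.

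**Figure D3:**
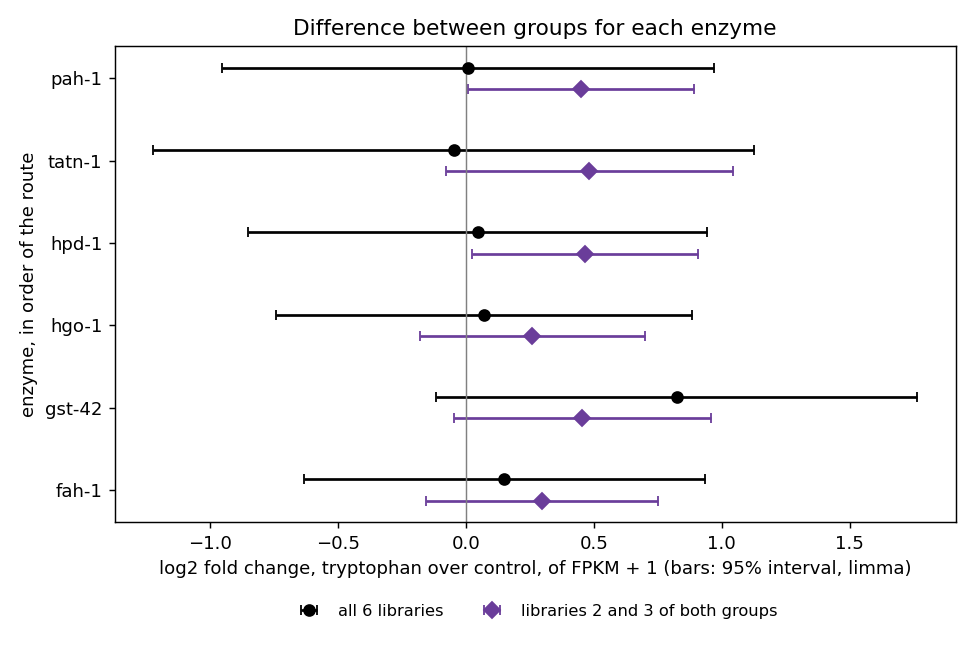
Log2 fold change of FPKM + 1, tryptophan over control (x axis), for each enzyme in order of the route (y axis), over all 6 libraries (black circles) and over libraries 2 and 3 of both groups (purple diamonds), with 95% intervals from limma. Over all libraries every interval includes 0, and in libraries 2 and 3 all 6 values lie between 0.26 and 0.48, where the intervals of pah-1 and hpd-1 lie above 0 under the scaling plotted, those of none with median rescaling and those of all 6 with rescaling to TPM.

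**Figure D4:**
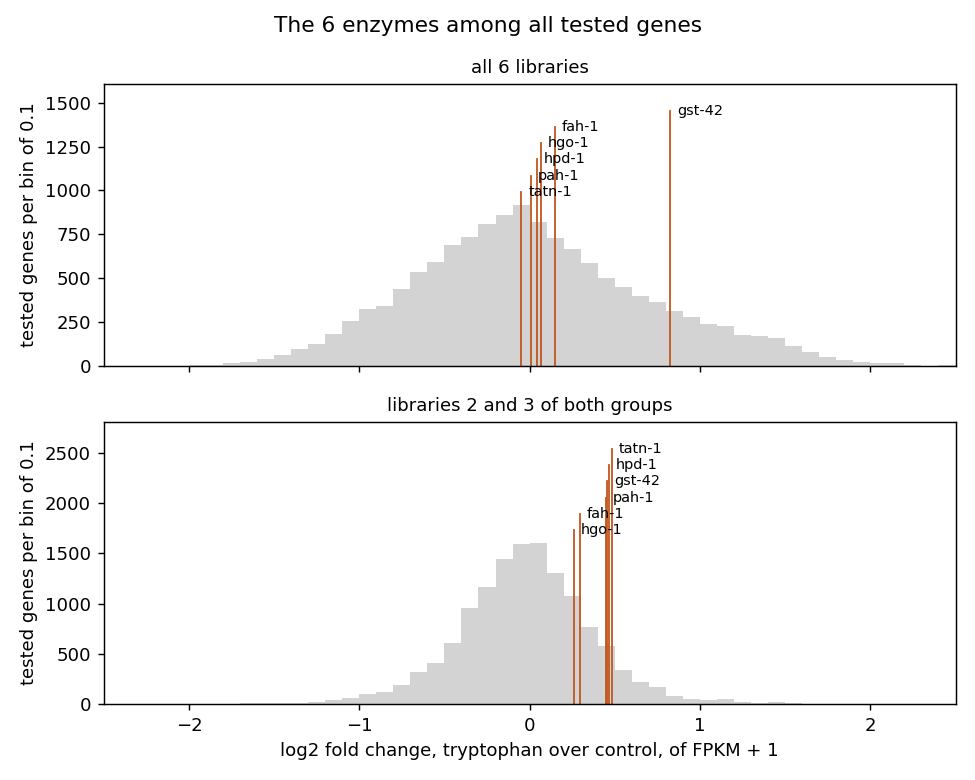
Number of tested genes (y axis) by log2 fold change, tryptophan over control (x axis, shown from -2.5 to 2.5), in grey, with the 6 enzymes as labelled lines, over all 6 libraries (upper) and libraries 2 and 3 of both groups (lower). Over all libraries 5 enzymes lie within 0.15 of 0 and gst-42 at 0.82, and in libraries 2 and 3 all 6 lie on the positive side.

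Genes that supply or draw on the route were examined in 5 lists of 31 genes, of which 27 were abundant enough to test. None passed (0 of 27, limma adjusted p). The 2 genes with the smallest limma p of each list are named, a choice that favours separation of the groups. For the cofactor tetrahydrobiopterin, 3 of 5 tested genes had log2 fold changes above 0 and 2 below it (median 0.061), and 4 were above 0 with rescaling to TPM. In libraries 2 and 3, 3 of 5 were above 0 (median 0.018). qdpr-1, whose product regenerates the cofactor, had 13.1, 39.9 and 36.6 FPKM in tryptophan libraries 1 to 3, against 84.1, 51.5 and 46.6 FPKM in control libraries 1 to 3. The groups did not overlap, and the log2 fold change was -1.10 (SE 0.53, limma adjusted p = 0.802), or -0.35 in libraries 2 and 3. Such full separation downward was found in 4.32% of the tested genes. agmo-1, which encodes an ether lipid oxygenase that uses the same cofactor, was at 0.242 FPKM in control library 1 and at 22.9 to 29.1 FPKM in the other 5 libraries. In all libraries its log2 fold change was 1.58 (SE 1.11, limma adjusted p = 0.802), and it was 0.075 in libraries 2 and 3.

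Among genes of amine synthesis and tyrosinases, not all of which act on tyrosine itself, 7 of 10 were tested. Of these, 3 were positive (median -0.053), or 4 with rescaling to TPM (median 0.058). In libraries 2 and 3, 6 of 7 were positive (median 0.18, or 0.39 with rescaling to TPM). tdc-1, which makes tyramine from tyrosine, had 45.2, 49.9 and 34.3 FPKM in tryptophan libraries 1 to 3, against 193.3, 48.8 and 64.04 FPKM in control libraries 1 to 3. Its log2 fold change was -0.97 (SE 0.56), or -0.43 (SE 0.25) in libraries 2 and 3, with the highest value in control library 1. tbh-1, which turns tyramine into octopamine, had a log2 fold change of -1.08 (SE 0.96) and one of 0.53 in libraries 2 and 3, with 84.4 FPKM in control library 1 and at most 14.1 FPKM in the others. Neither passed (limma adjusted p = 0.802 for both).

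Genes listed for the further use of fumarate and acetoacetate, thiolases included, all had negative values (6 of 6 tested, median -0.41). Over all tested genes, 7065 of 13511 were negative. In libraries 2 and 3, 3 of the 6 were negative (median -0.13). With rescaling to TPM, 5 of 6 were negative over all libraries and 3 of 6 in libraries 2 and 3 (median 0.11). kat-1, which encodes a thiolase, had 192.3, 223.2 and 185.8 FPKM with tryptophan, against 348.1, 275.3 and 261.2 FPKM in controls. T02G5.7, a related thiolase gene, had 92.5, 141.4 and 123.4 FPKM with tryptophan, against 214.8, 164.6 and 171.8 FPKM in controls. In both the tryptophan libraries lay below every control library, as for 4.32% of all tested genes. Their log2 fold changes were -0.55 (SE 0.32) and -0.63 (SE 0.35), or -0.40 and -0.35 in libraries 2 and 3. Neither passed (limma adjusted p = 0.802 for both), and how the reads of these related genes were divided is not given.

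Of 5 tested aminotransferases other than tatn-1, 1 had a positive log2 fold change (median -0.45), and with rescaling to TPM, where 6 passed the filter, 3 did. In libraries 2 and 3 the count was 1 of 5, or 5 of 6 with rescaling to TPM. The aspartate aminotransferase genes got-2.1 and got-2.2 lay below the controls in every tryptophan library, as did 4.32% of all tested genes. Their log2 fold changes were -0.54 (SE 0.36) and -0.45 (SE 0.34), and -0.25 and -0.19 in libraries 2 and 3. Both had a limma adjusted p of 0.802. The regulators of energy, insulin and stress signalling aak-2, daf-2, daf-16 and skn-1, among them genes that genetic work in worms connects with tatn-1, all had negative values over the 6 libraries (median -0.69) and positive ones in libraries 2 and 3 (median 0.62). daf-16, which encodes the FOXO transcription factor of insulin signalling, had 4.59, 32.2 and 25.6 FPKM with tryptophan, against 44.9, 23.9 and 16.7 FPKM in controls. daf-2, the insulin receptor gene, was at 0.681 FPKM in tryptophan library 1 and 24.6 FPKM in control library 1. As for tatn-1, the low daf-16 and daf-2 values were those of tryptophan library 1.

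**Figure D5:**
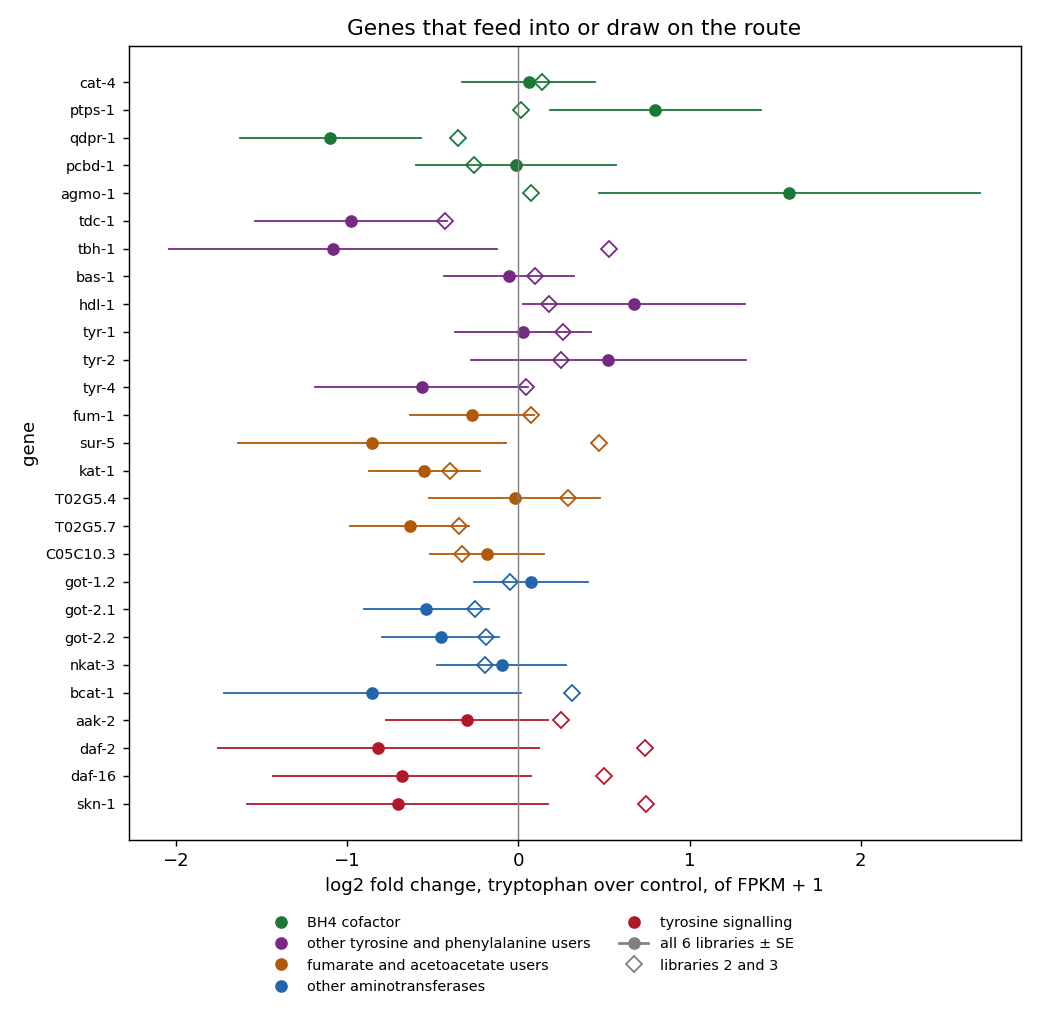
Log2 fold change of FPKM + 1, tryptophan over control (x axis), of the 27 tested genes around the route (y axis, colours mark the lists); filled circles with bars are all 6 libraries ± SE and open diamonds are libraries 2 and 3 of both groups. The 4 signalling genes lie below 0 over all libraries and above 0 in libraries 2 and 3. Below 0 in both lie kat-1, T02G5.7, C05C10.3, qdpr-1, pcbd-1, tdc-1, got-2.1, got-2.2 and nkat-3.

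The genes whose centred profile over the 6 libraries lay nearest to each enzyme were taken from 12780 tested protein-coding genes. For pah-1 these were thoc-5 (root mean square distance 0.041 on the log2 scale) and rpn-3 (0.073), and for tatn-1 they were tps-1 and unc-14 (both 0.074). For hpd-1 they were metl-13 (0.082) and W01A11.1 (0.092), and for hgo-1 they were C45B2.6 (0.055) and K07C5.3 (0.071). Those nearest to gst-42 were C17G10.7 (0.074) and T09B4.4 (0.083), and those nearest to fah-1 were mlcd-1 (0.052) and mtr-4 (0.054). Median distances over all genes searched were 0.597 for hgo-1 to 0.764 for tatn-1. Within 0.1 lay 6 genes for gst-42, 7 each for pah-1 and tatn-1, 8 for hpd-1, 24 for fah-1 and 31 for hgo-1. T09B4.4 had 16.8, 10.9 and 13.7 FPKM with tryptophan and 5.87, 8.36 and 9.09 FPKM in controls, the same order of libraries as gst-42. C17G10.7, which lay nearer to gst-42, had 4.22, 2.06 and 3.13 FPKM with tryptophan and 0.909, 1.62 and 2.08 FPKM in controls. Its groups overlapped. A similar order follows from the choice of these genes by nearest profile.

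The row T21C9.2 (vps-54, chromosome V, 10566402 to 10576419, reverse strand) had 6.17, 24.8 and 17.1 FPKM in tryptophan libraries 1 to 3, against 24.3, 15.7 and 18.4 FPKM in control libraries 1 to 3. Its groups overlapped over all libraries and in libraries 2 and 3, with log2 fold changes of -0.43 (SE 0.56, limma adjusted p = 0.824) and 0.26 (SE 0.24, limma adjusted p = 0.651).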

How the data were processed

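The deposited tables hold FPKM values made by the authors, 1 table for each library, per the file headers. The submitters' processing notes name Bowtie 0.12.2, StringTie and the genome build WBcel235. Annotation release, filters and strandedness are not given. Identifiers were matched to the WBcel235 annotation (Ensembl release 115), which covered 46183 of 46589 and gave symbols and 1-based coordinates.

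No count model was used. Depth was estimated by multiplying low FPKM values by transcript length, in 12496 genes with a single transcript of at least 600 bp. The share rests on 1354 to 1852 low products a library, of which 71.9% to 76.7% lay within 0.2 steps of a whole multiple of a common step. The step was chosen to bring such products near whole multiples, so the share does not test it. By that step, an estimated 282 to 1077 counted units lay behind each gst-42 value and 861 to 6505 behind each value of the other enzymes. A unit may be a single read or a read pair.

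The test of tryptophan over control was limma 3.58.1 under R 4.3.3, on log2(FPKM + 1) of 13511 genes averaging 1 FPKM or more. It used eBayes with trend, was two-sided, and was adjusted over those genes by Benjamini-Hochberg, with 0.05 as threshold. Exact permutation of 3 against 3 libraries reaches 0.1 at best and was left out. The fit was tested on data simulated with independent residuals, which do not reproduce libraries that stand apart across many genes. There were 15 alternatives: a pseudocount of 0.1 or 0.5, a filter at 5 FPKM or none, median rescaling, rescaling to TPM, a replicate block, eBayes without trend, each library left out in turn, and libraries 2 and 3 of both groups. Another 2, chosen after seeing the data, combined these libraries with either rescaling. Tables were made with pandas 2.3.3 and numpy 2.4.6 under Python 3.11.15, and figures with matplotlib 3.10.9.

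Genes named were the 6 enzymes, the 2 genes with the smallest p of each surrounding list, since 0 passed, and the 2 genes nearest in profile to each enzyme. The enzymes, lists, alternatives and the use of libraries 2 and 3 were chosen with earlier results of these data known.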

Additional observations from a re-analysis of the deposited data

How the results depend on the processing

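No enzyme was called under any of the 17 alternatives, and 0 of all tested genes were called except in libraries 2 and 3 of both groups, where 68 were called, or 149 with median rescaling and 18 with rescaling to TPM. The log2 fold changes of gst-42 and fah-1 were positive in all 17, at 0.44 to 1.02 for gst-42 and 0.039 to 0.53 for fah-1. The filters, the replicate block and eBayes without trend cannot alter a log2 fold change here, so their signs were fixed in advance. The pah-1 value was -0.0042 with median rescaling, and the tatn-1 value was 0.065 with rescaling to TPM, a setting that moved the median of all genes by 0.11, and 0.48 in libraries 2 and 3, or 0.47 and 0.72 there with median rescaling and rescaling to TPM. With each library left out in turn, values ran from -0.17 to 0.28 for pah-1, -0.34 to 0.44 for tatn-1, -0.12 to 0.30 for hpd-1, -0.0099 to 0.18 for hgo-1, 0.62 to 1.02 for gst-42 and 0.039 to 0.29 for fah-1. The cause was not tested. With the replicate block, limma gave an adjusted p of 0.888 for gst-42 and 77 genes at an unadjusted p below 0.05, against 158 without it. Deviations from the group means correlated at -0.37, -0.30 and -0.34 between libraries of the same number, and at -0.56 to 0.51 between the others. These values rest on 3 libraries a group, including those that stood apart. They cannot decide whether the replicate numbers pair the libraries. With 3 libraries a group, the 95% intervals of the enzymes still held log2 differences of either sign.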

Other observations

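Some genes around the route that were singled out after their values were seen differed mainly in the libraries that stood apart. ptps-1, which acts in tetrahydrobiopterin synthesis, had 94.4, 24.5 and 21.5 FPKM in tryptophan libraries 1 to 3 and 17.5, 19.04 and 26.9 FPKM in control libraries 1 to 3. bcat-1, which encodes a branched-chain aminotransferase, had 12.5, 136.6 and 118.7 FPKM in tryptophan libraries 1 to 3 and 121.6, 116.04 and 89.9 FPKM in control libraries 1 to 3. Neither passed (limma adjusted p = 0.802 for both). got-1.2, an aspartate aminotransferase gene, was between 77.3 and 79.4 FPKM in the tryptophan libraries and between 63.4 and 84.9 FPKM in the controls. cat-4, which encodes the enzyme that opens tetrahydrobiopterin synthesis, shares 63 bp of exon with vps-54 on the opposite strand and had 115.5, 79.3 and 83.2 FPKM with tryptophan and 123.8, 70.05 and 77.2 FPKM in controls.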
